A study of Homo sapiens with 17 samples.

Results

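The genes described here are those of the lysosome's degradative core: the vacuolar proton pump (V-ATPase), the hydrolases of the lumen, the activator proteins that present lipids to them, the proteins of the lysosomal membrane, and TFEB and TFE3, 2 transcription factors of this gene set. The rule that picks the members uses their symbols and no measured value. All 17 genes whose symbol begins with ATP6V or ATP6AP were taken, together with 38 of 39 listed lysosomal genes. The remaining listed gene, CLN3, had no row. This gave 55 of the 9699 genes in the table, and all 55 are accounted for below. By role they were 8 subunits of the catalytic V1 sector, 7 subunits of the membrane-embedded V0 sector, 2 accessory subunits, 10 cathepsins and other peptidases, 9 glycosidases, 4 sulfatases, 4 lipid hydrolases, 3 lipid activators and carriers, 6 membrane proteins and the 2 transcription factors.

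Lysosomes are the acidic compartments in which cells break down proteins, glycans and lipids delivered by endocytosis and autophagy. The V-ATPase couples ATP hydrolysis by its V1 sector to proton transport through its V0 sector, and the resulting low pH is what most lysosomal hydrolases need in order to work. GLB1, the lysosomal beta-galactosidase, is the enzyme behind the senescence-associated beta-galactosidase stain, and an enlarged lysosomal compartment is a known feature of senescent fibroblasts. TFEB and TFE3 bind a short palindromic element found near the start sites of many lysosomal genes, and their activity is controlled largely by their movement into the nucleus, which depends on mTORC1 signalling at the lysosomal surface.

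The data came from BJ cells, human fibroblasts immortalized with hTERT, in which mRNA (RNA-Seq) and ribosome-protected fragments (Ribo-Seq) were sequenced in parallel. Proliferating cells, grown under normal conditions, were compared with cells made quiescent by serum depletion, with pre-senescent cells 5 days after induction of oncogenic RASG12V, with fully senescent cells 14 days after that induction, and with transformed cells. The pre-senescent and senescent cells carried a RASG12V that 4-OHT-tamoxifen switches on and were kept in that drug, which the labels list for these cultures alone, so that RAS and the drug cannot be told apart. The transformed cells carried stable knockdowns, that of p16INK4A among them, and SV40 small T, and received RASG12V by retrovirus. Every group thus shared hTERT and the BJ background. The 17 libraries, 9 of RNA-Seq and 8 of Ribo-Seq, fell into 2 sequencer runs. Run 1 held proliferation, quiescence and pre-senescence, and run 2 held a separate proliferating culture, senescence and the transformed state. The table gave 1 value for each condition, assay and run, in 12 columns. Of these, 5 were the authors' combined values of 2 libraries each (all of run 1 except pre-senescent Ribo-Seq), and 7 were single libraries. No spread between replicates could therefore be computed and no test was run. A change was read against the proliferating column of the same run, called past the fold when it was at least 1.5-fold, and set beside the same count over all 9699 genes and beside the difference between the 2 proliferating columns. Values are FPKM, fragments scaled to transcript length and to the reads of the library, so they are shares of a library: RNA per cell was not measured, and a larger share per cell cannot be told apart from a smaller total. The table holds no read counts, and the read totals that the study lists per library were not used here, so no counting interval is given.

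The element bound by TFEB and TFE3 was looked for in RefSeq promoter sequences (build GRCh38.p14), running from 250 bases before to 50 bases after the first start site listed for each gene. Of the 55 members, 40 had an entry, 1 of them under a newer symbol (CTSL for CTSL1). The letters searched were TCACGTGA and the shorter core CACGTG that it contains, and both read the same on either strand. TCACGTGA was present in 6 of 40 member promoters (15.0%), against 283 of 27305 promoters of the whole table (1.04%) and 173 of the 8054 measured genes with an entry (2.15%). The core CACGTG was present in 12 of 40 members (30.0%), against 7.43% of all promoters and 10.5% of those of measured genes. The 100 bases directly before the start site are shown for the 6 members with the longer element, because the element that TFEB and TFE3 bind is complete in them, with every TCACGTGA in capitals. GLB1 and GM2A follow as promoters with no match: the former encodes the senescence-associated enzyme and the latter had the largest RNA change of all members between senescence and proliferation. The windows are chr16:67481158-67481257 (minus strand) for ATP6V0D1, chr9:114587669-114587768 (plus) for ATP6V1G1, chr20:45891235-45891334 (plus) for CTSA, chr17:80101481-80101580 (plus) for GAA, chr13:113297139-113297238 (plus) for LAMP1, chr19:7522524-7522623 (plus) for MCOLN1, chr3:33096823-33096922 (minus) for GLB1 and chr5:151253085-151253184 (plus) for GM2A.
ATP6V0D1: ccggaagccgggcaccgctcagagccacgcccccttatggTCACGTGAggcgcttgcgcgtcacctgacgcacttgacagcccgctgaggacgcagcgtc
ATP6V1G1: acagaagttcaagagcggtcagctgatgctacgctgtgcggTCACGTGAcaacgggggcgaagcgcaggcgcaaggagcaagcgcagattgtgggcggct
CTSA: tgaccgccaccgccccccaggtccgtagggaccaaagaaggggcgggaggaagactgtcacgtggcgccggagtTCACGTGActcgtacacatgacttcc
GAA: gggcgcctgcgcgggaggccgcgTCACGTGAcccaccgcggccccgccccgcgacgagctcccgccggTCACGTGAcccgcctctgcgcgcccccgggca
LAMP1: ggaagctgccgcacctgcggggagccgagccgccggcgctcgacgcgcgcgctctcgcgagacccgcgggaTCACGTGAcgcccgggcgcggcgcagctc
MCOLN1: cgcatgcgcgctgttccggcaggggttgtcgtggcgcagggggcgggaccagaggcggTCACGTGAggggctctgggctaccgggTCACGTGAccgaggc
GLB1: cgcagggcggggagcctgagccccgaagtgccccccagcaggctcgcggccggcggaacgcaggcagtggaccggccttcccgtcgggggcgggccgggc
GM2A: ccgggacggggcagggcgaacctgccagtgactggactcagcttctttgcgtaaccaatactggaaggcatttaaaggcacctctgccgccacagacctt

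The matches lay close to the start site. Counted to the first base of the element, they began 60 bases upstream in ATP6V0D1, 59 in ATP6V1G1, 26 in CTSA and 29 in LAMP1. GAA and MCOLN1 held 2 copies each within the window, at 77 and 32 bases in GAA and at 42 and 15 bases in MCOLN1. A second match in LAMP1 spans the start site and so lies partly outside the window shown. The 6 genes span the roles of the set: a V0 and a V1 subunit of the pump, a carboxypeptidase that protects other lysosomal enzymes (CTSA), the acid alpha-glucosidase that degrades glycogen (GAA), the main glycoprotein of the lysosomal membrane (LAMP1) and its calcium channel (MCOLN1). A match of letters is a description of the sequence and was not tested as a binding site.

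Before the results, the labels were checked. The proliferation marker MKI67 was at 1.00 FPKM, the lowest value the table holds, in both senescent columns, against 44.0 FPKM in RNA-Seq of the same-run proliferating cells, and LMNB1 was at 1.00 and 1.28 FPKM in senescent RNA-Seq and Ribo-Seq. CDKN1A, a cell cycle inhibitor, stood at 814 FPKM in senescent RNA-Seq against 172 FPKM. For the Ribo-Seq libraries of senescence and of run 2 proliferation, the title and the condition field contradict each other. The titles were followed: under them the log2 changes of RNA-Seq and Ribo-Seq correlated across the 9699 genes with r = 0.83, and with the libraries exchanged with r = -0.83, a description across genes that are not independent. CDKN2A, which encodes p16INK4A, was not lower in RNA-Seq of the cells labelled transformed than in the same-run control (12.6 FPKM against 6.75 FPKM). In Ribo-Seq it was lower (5.51 FPKM against 8.92 FPKM), and in both assays it was below run 1 proliferation (17.2 and 13.0 FPKM). These gene-level values do not settle the labelled knockdown. HRAS stood at 1254 to 2415 FPKM in the other RNA-Seq columns and at 312 FPKM in the library labelled transformed. Of the fibroblast markers, VIM was at 2956 FPKM or more in every RNA-Seq column, while COL1A1 was 51.6 FPKM in senescence against 1328 FPKM in its control. Of 6 macrophage markers, which would stand for a lysosome-rich cell type, only CD14 had a row, at 1.00 to 1.67 FPKM in RNA-Seq. No endothelial marker of 3 had a row. Of 5 epithelial markers, 3 had rows, with summed RNA-Seq values of 105 to 198 FPKM in run 1 and of 313, 136 and 208 FPKM in run 2 proliferation, senescence and the transformed state. Their part in the results was not tested.

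In proliferating cells the members covered a wide range of levels. In RNA-Seq of run 1 and run 2, the highest was the tetraspanin CD63, at 591 and 874 FPKM. The lowest were the cysteine protease CTSO in run 1, at 1.00 FPKM (7.00 FPKM in run 2), and TFEB in run 2, at 3.20 FPKM. CTSO in run 1 was the single member value at the floor of 1, below which the authors set all FPKM to 1. The median member stood at 30.5 and 37.9 FPKM, above the medians of all genes (13.6 and 13.1 FPKM). By the mean of both columns, CTSB led the peptidases (182 and 348 FPKM), and TFE3 (69.4 and 45.5 FPKM) stood far above TFEB (3.47 and 3.20 FPKM).
By the same mean, the highest V0 subunit was the proton-carrying ring subunit ATP6V0C (155 and 148 FPKM) and the lowest was the a-subunit isoform ATP6V0A2 (4.34 and 4.39 FPKM). In V1, ATP6V1E1 (78.6 and 76.7 FPKM) was the highest and ATP6V1C1 (13.6 and 15.3 FPKM) the lowest. GLB1 was the highest glycosidase (25.9 and 37.9 FPKM) and FUCA1 the lowest (3.15 and 11.8 FPKM), the sphingolipid activator precursor PSAP (195 and 288 FPKM) stood above the ganglioside activator GM2A (21.2 and 36.5 FPKM), and PPT1, which removes palmitate from proteins, stood above the acid ceramidase ASAH1 (45.7 and 36.4 FPKM against 16.2 and 19.9 FPKM). SGSH, a heparan sulfatase, led ARSA, the sulfatide-degrading sulfatase (18.4 and 18.0 FPKM against 8.76 and 10.6 FPKM), ATP6AP2 stood at 55.5 and 75.1 FPKM beside ATP6AP1 at 52.3 and 51.7 FPKM, and MCOLN1 was the lowest membrane protein (15.2 and 11.4 FPKM).
Translation efficiency (TE), taken as log2 of the Ribo-Seq over the RNA-Seq FPKM, had a member median of 0.77 and 0.89 in the 2 proliferating pairs of columns, against 0.35 and 0.40 for all genes. Of the role groups the membrane proteins had the highest TE in run 1 (median 1.55), and the transcription factors the lowest (-0.82).

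The 5 genes followed in every column behaved differently from one another. GLB1 had 25.9, 36.7 and 30.6 FPKM in RNA-Seq of proliferation, quiescence and pre-senescence of run 1, and 37.9, 56.8 and 37.4 FPKM in proliferation, senescence and the transformed state of run 2. In Ribo-Seq it had 30.3, 43.3 and 48.0 FPKM in run 1 and 55.9, 131 and 46.9 FPKM in run 2. Senescence was thus the highest column of GLB1 in both assays, and by more in footprints (log2 1.23) than in mRNA (log2 0.58, just short of the 1.5-fold line). LAMP1, at 139, 152 and 143 FPKM in RNA-Seq of run 1, had 146, 208 and 158 FPKM in run 2, and its Ribo-Seq values were 422, 541 and 637 FPKM and then 402, 1083 and 422 FPKM. LAMP2, the second major membrane glycoprotein and a receptor for chaperone-mediated autophagy, had 49.2, 63.5 and 47.9 FPKM and then 45.9, 56.1 and 42.3 FPKM in RNA-Seq, and 154, 139 and 138 FPKM and then 112, 249 and 102 FPKM in Ribo-Seq. Both membrane glycoproteins were highest in senescent Ribo-Seq, while no RNA-Seq column of either was 1.5-fold from its control.
TFEB was low throughout, at 3.47, 5.05 and 1.91 FPKM in RNA-Seq of run 1 and 3.20, 2.91 and 3.12 FPKM in run 2. Its Ribo-Seq values were 3.06, 4.69 and 1.88 FPKM and then 2.41, 2.63 and 1.56 FPKM, so that it was lowest in pre-senescent mRNA and in footprints of the cells labelled transformed. TFE3 had 69.4, 62.1 and 59.1 FPKM and then 45.5, 63.5 and 56.6 FPKM in RNA-Seq, against only 25.3, 29.7 and 17.2 FPKM and then 19.0, 16.8 and 13.6 FPKM in Ribo-Seq. Its TE was below 0 in every column, from -1.06 in quiescence to -2.06 in the transformed state. The mRNA of neither factor was 1.5-fold higher in senescence (log2 -0.14 for TFEB and 0.48 for TFE3), and FPKM says nothing of where the proteins are in the cell.

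**Figure D1:**
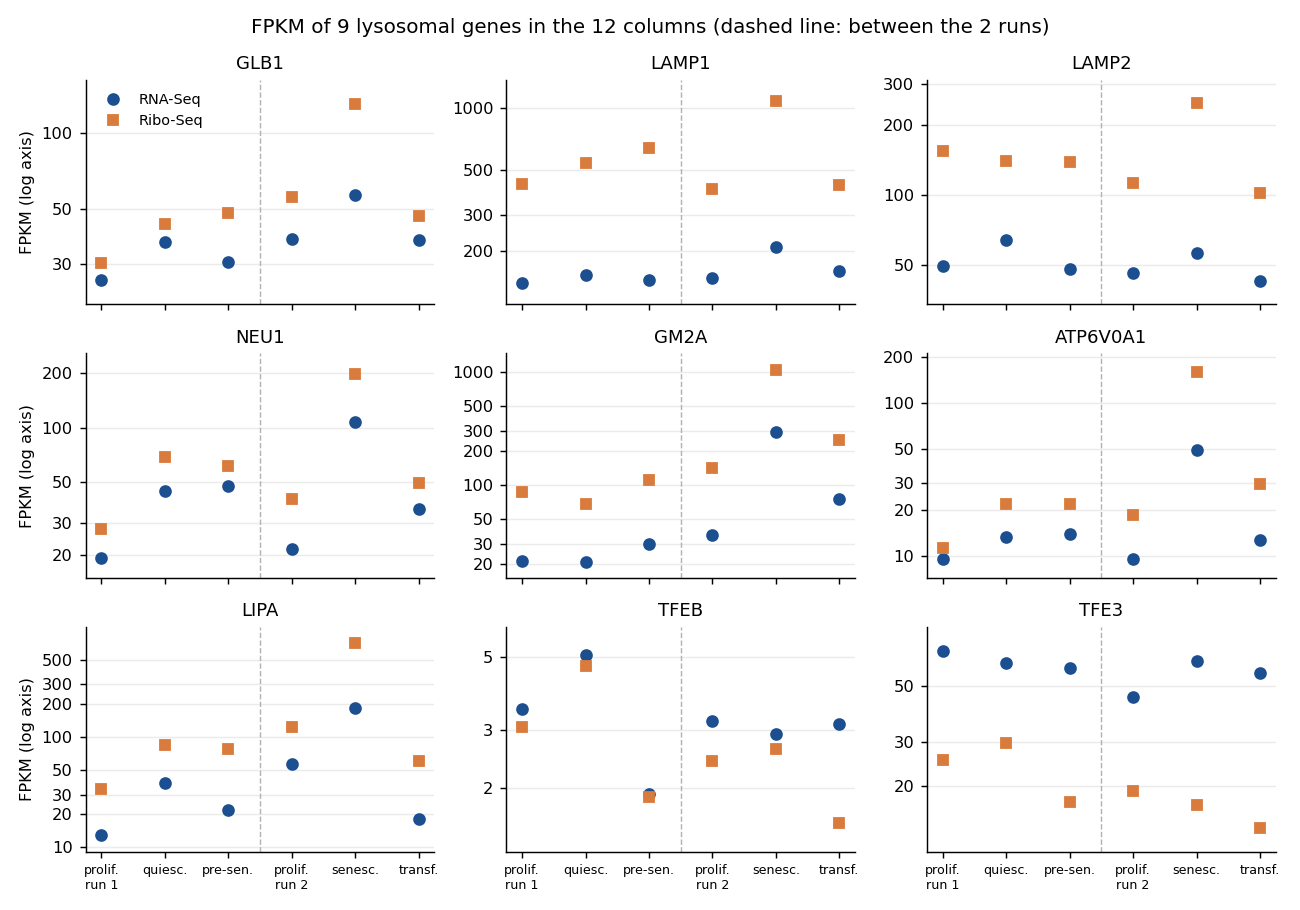
FPKM of 9 lysosomal genes on a log axis in the 6 conditions by run, with RNA-Seq as circles and Ribo-Seq as squares; each point is 1 column of the table and the dashed line separates the 2 runs. GLB1, LAMP1, LAMP2, NEU1, GM2A, ATP6V0A1 and LIPA are highest in senescent Ribo-Seq, while TFEB and TFE3 are not.

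Fully senescent cells had the broadest change. In RNA-Seq, 31 of the 55 members were at least 1.5-fold higher in senescence than in proliferation and 5 were lower, with a median log2 change of 0.75. Of all genes, 18.5% were higher and 22.4% lower by that measure, with a median of -0.00. The proton pump gave the largest part of that count: 15 of its 17 genes were higher, 1 was lower and 1, the accessory subunit ATP6AP2, was at log2 0.58, just inside the line (median 1.31). All 8 V1 subunits were higher, from log2 0.75 for ATP6V1B2 to 1.54 for ATP6V1F, and so were 6 of 7 V0 subunits.
Within V0 the alternative a-subunits, which direct the pump to different membranes, went opposite ways in mRNA. ATP6V0A1 was at 9.64 FPKM in proliferation and 49.4 FPKM in senescence, and its run 1 columns lay between 9.57 and 13.9 FPKM. ATP6V0A2 was at 4.39 FPKM and 2.54 FPKM, and its run 1 columns lay between 4.24 and 4.77 FPKM. Senescence was therefore the highest RNA-Seq column for ATP6V0A1 (log2 2.36) and the lowest for ATP6V0A2 (log2 -0.79), at a low level. Footprints of ATP6V0A2 were not lower, at 7.47 FPKM in proliferation and 7.98 FPKM in senescence (log2 0.10). Those of ATP6V0A1 were at 18.6 and 159 FPKM (log2 3.10).
The largest RNA change of any member was that of GM2A, the activator that lifts ganglioside GM2 out of the membrane for cleavage by HEXA. It had 36.5 FPKM in run 2 proliferation and 295 FPKM in senescence, against 75.3 FPKM in the transformed state and 21.1 to 30.3 FPKM in run 1, a log2 change of 3.01 that placed it at percentile 99.6 of all genes. NEU1, the lysosomal sialidase, had 21.5 FPKM in proliferation and 107 FPKM in senescence (log2 2.31), and was also above its control in quiescence and pre-senescence. The other 2 activators and carriers were higher as well, PSAP by log2 1.06 and NPC2, which carries cholesterol out of the lumen, by log2 0.77. Of the lipid hydrolases 3 of 4 were higher (LIPA, ASAH1 and PPT1), led by the acid lipase LIPA at log2 1.69.

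The hydrolases of proteins and glycans did not follow as a block. Of the 10 cathepsins and other peptidases, 2 were higher (CTSL1 and CTSD) and 3 were lower (CTSC, CTSF and CTSO), with a median of -0.10. The 3 lower calls depend on the control. Senescent CTSC, CTSF and CTSO had 76.0, 9.27 and 4.63 FPKM, against 77.2, 3.34 and 1.00 FPKM in run 1 proliferation. Senescent CTSD (215 FPKM) was likewise within 1.5-fold of run 1 proliferation (172 FPKM). CTSL1, which encodes cathepsin L, had 85.6 FPKM in proliferation and 372 FPKM in senescence (log2 2.12), whereas CTSC, the dipeptidyl peptidase that activates granule proteases, had 123 FPKM and 76.0 FPKM (log2 -0.70). Of the 9 glycosidases, 4 were higher and 1 was lower, and of the 4 sulfatases 2 were higher. The lower glycosidase was GUSB, the lysosomal beta-glucuronidase, at 14.2 FPKM in proliferation and 5.55 FPKM in senescence (log2 -1.36). GUSB and GLB1, 2 exoglycosidases of the same compartment, thus lay on opposite sides of 0 in senescent mRNA. Of the 6 membrane proteins 2 were higher: NPC1, the cholesterol transporter of the lysosomal membrane (log2 1.77), and MCOLN1 (log2 1.74).

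**Figure D2:**
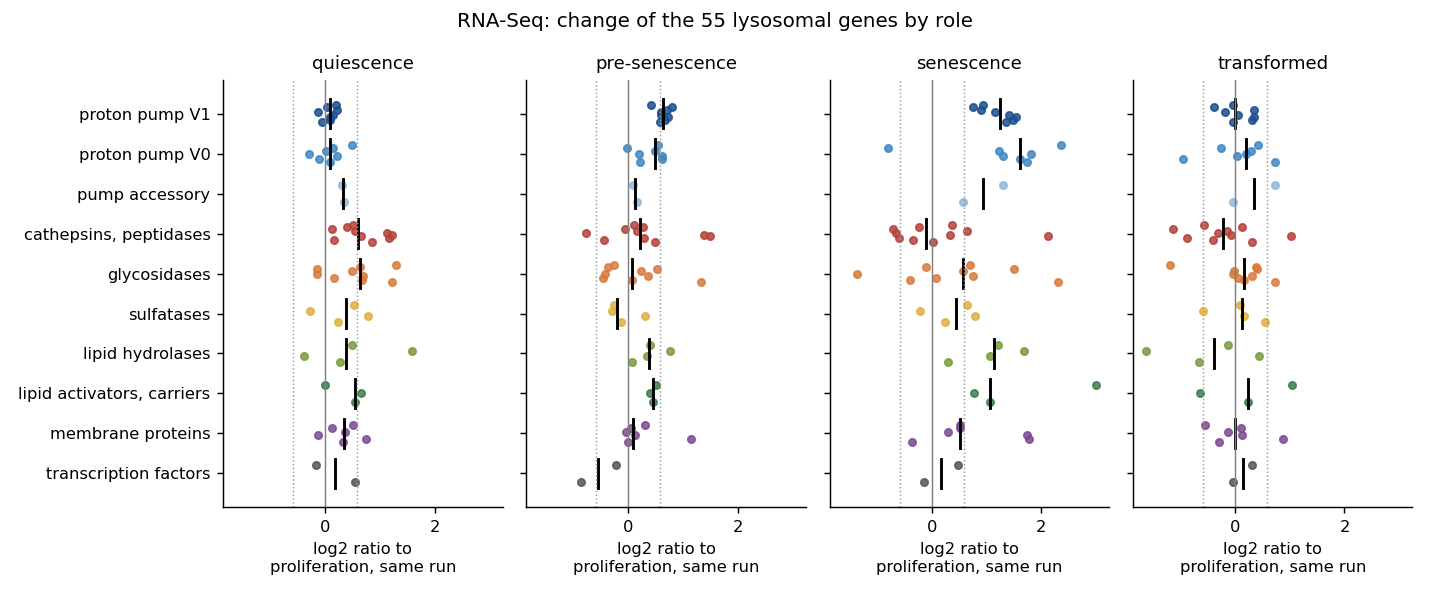
Log2 ratio of RNA-Seq FPKM to the same-run proliferating column for each of the 55 genes, by role (rows) in the 4 conditions (panels). Each point is 1 gene, the black bar is the median of the role, the dotted lines mark 1.5-fold; the V1 and V0 points lie right of the line in senescence except ATP6V0A2, while the peptidases straddle 0.

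The difference between the 2 proliferating cultures sets a scale for these changes. Run 2 proliferation was at least 1.5-fold above run 1 proliferation in 15 members and below it in 2 in RNA-Seq (12% and 14.1% of all genes, member median 0.30), and in 16 and 1 members in Ribo-Seq (21% and 20.3%, member median 0.28). The members furthest apart were CTSO (1.00 against 7.00 FPKM), LIPA (12.8 against 56.2 FPKM), CTSF (3.34 against 14.7 FPKM) and FUCA1 (3.15 against 11.8 FPKM), which were all higher in run 2, while NPC1 was lower (28.9 against 14.3 FPKM). In TE, run 2 was at least 1.5-fold above run 1 in 6 members and below it in 2 (16% and 11.9% of all genes, member median -0.07). Of the 7 V0 subunits 4 were above it (median 0.70), ATP6V0A2 and ATP6V0E2 among them (log2 0.77 and 0.70). FUCA1 was below it (log2 -1.04). Run and culture cannot be told apart here.
Measured against both proliferating columns, 30 members were at least 1.5-fold above the higher of them in senescent RNA-Seq, against 13.7% of all genes, and 2 members, ATP6V0A2 and GUSB, were below the lower of them, against 17.7%. In Ribo-Seq 38 members were above both (16.2% of all genes) and 1, GUSB, was below both (21.8%). The pump genes among the 30 were 15 of 17. The same count was 5 members in quiescence (HEXA, IDS, NEU1, NPC1 and TPP1; 5.07% of all genes), 5 in pre-senescence (ATP6V1E1, CTSK, CTSL1, NEU1 and NPC1; 3.28%) and 4 in the transformed state (ATP6AP1, CTSL1, GM2A and NEU1; 6.98%), all in RNA-Seq. NEU1, at 19.3 and 21.5 FPKM in the proliferating columns, had 45.0 FPKM in quiescence, 48.1 FPKM in pre-senescence, 107 FPKM in senescence and 35.7 FPKM in the transformed state.

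Ribosome footprints of the members were raised further than their mRNA in senescence. In Ribo-Seq, 39 members were at least 1.5-fold higher and 1 was lower, with a median log2 change of 1.16, while 20.7% of all genes were higher and 29% lower. In TE, 17 members were higher and 3 lower (median 0.45), beside 13.8% and 17.6% of all genes (median -0.03). The gain in TE lay outside the pump: among the 38 other members 14 were higher and 1 was lower (median 0.52), and among the 17 pump genes 3 were higher and 2 were lower (median 0.04). The membrane proteins had the highest median (0.87, with 4 of 6 higher).
ASAH1 had the largest TE change, with 19.9 and 46.2 FPKM in RNA-Seq and 41.5 and 197 FPKM in Ribo-Seq of proliferation and senescence, a difference in TE of 1.04. SCARB2, a lysosomal membrane protein that also acts as a sorting receptor, had 66.0 and 52.0 FPKM in RNA-Seq but 146 and 223 FPKM in Ribo-Seq (TE 0.96). LAMP1 (TE 0.92), LAMP2 (0.86) and GLB1 (0.65) showed the same combination of a small mRNA change and a larger footprint change. For SCARB2 the 2 assays moved in opposite directions against this control, the mRNA by less than 1.5-fold (log2 -0.35). In run 1 proliferation its RNA-Seq value was 31.0 FPKM, below that of senescence, so that the direction of its mRNA depends on the control.
The lower members in TE were TFE3 (-0.67) and 2 small V1 subunits. ATP6V1F went from 79.9 to 233 FPKM in RNA-Seq and from 152 to 178 FPKM in Ribo-Seq (TE -1.32), and ATP6V1G1 from 60.8 to 170 FPKM in RNA-Seq and from 285 to 348 FPKM in Ribo-Seq (TE -1.20). These were the 2 V1 subunits with the largest mRNA change, yet their footprints were within 1.5-fold of the same-run control (log2 0.22 and 0.29). For ATP6V1G1 this depends on the control, since its Ribo-Seq value in run 1 proliferation was 127 FPKM. The other 6 V1 subunits were at least 1.5-fold higher in footprints.

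**Figure D3:**
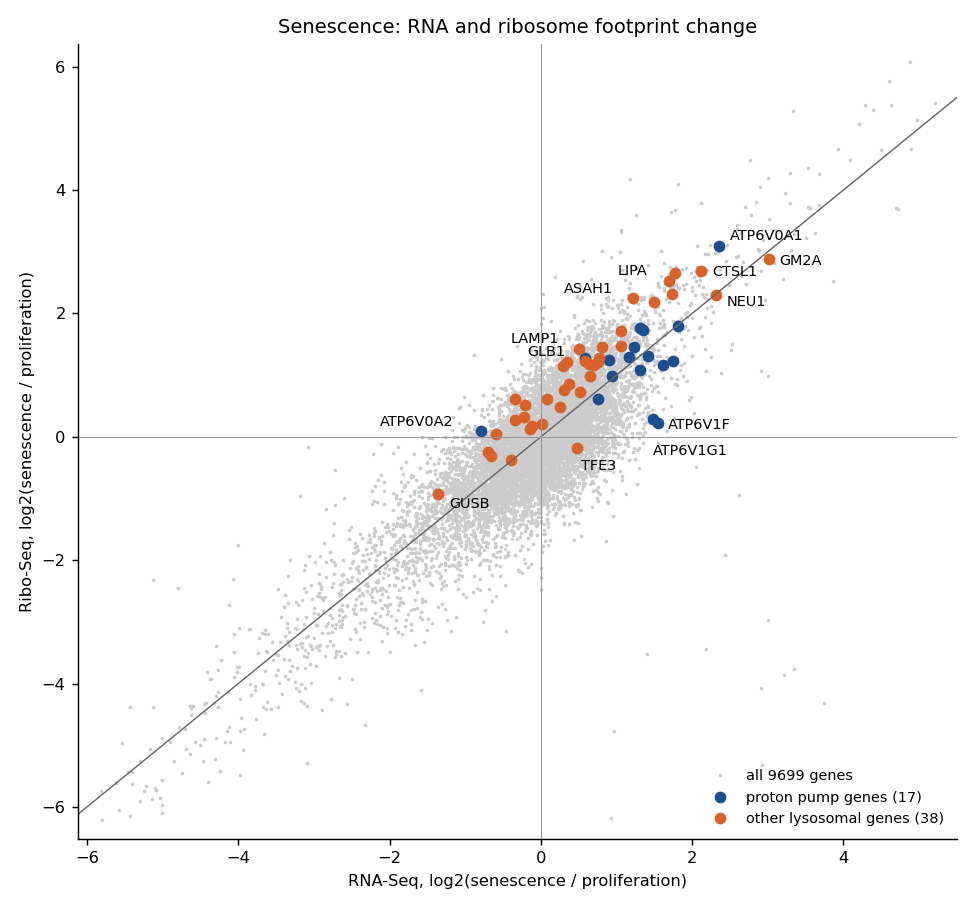
Log2 ratio of senescent to proliferating (run 2) FPKM in RNA-Seq (x axis) and Ribo-Seq (y axis); grey points are all 9699 genes, blue the 17 proton pump genes and orange the 38 other lysosomal genes, and the diagonal marks equal change. Most members lie in the upper right, the orange points mostly above the diagonal, and ATP6V1F and ATP6V1G1 well below it.

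Pre-senescence, 5 days after RAS induction, showed the V1 subunits of the pump above their control in mRNA but mostly not in TE. In RNA-Seq, 13 members were at least 1.5-fold higher and 2 lower than in run 1 proliferation (median 0.28), beside 5.65% and 6.64% of all genes (median 0.02). The pump gave 8 of the 13, namely 6 of 8 V1 and 2 of 7 V0 subunits, all by small amounts: the V1 changes ran from log2 0.42 for ATP6V1A to 0.80 for ATP6V1B2. These calls depend on the control, since of the 8 only ATP6V1E1 was at least 1.5-fold above both proliferating columns. ATP6V1B2, for instance, had 45.6 FPKM, against 40.0 FPKM in run 2 proliferation. In Ribo-Seq 17 members were higher and 1 was lower (15.9% and 22.8% of all genes, member median 0.27). TE was higher for 6 and lower for 4 members (14.2% and 22.5%), and all 4 lower ones were V1 subunits (V1 median -0.57). The V0 subunits differed from V1, with a TE median of 0.42 and a Ribo-Seq median of 0.69. That TE median was smaller than the one between the 2 proliferating columns, 0.70 for V0 in run 2 against run 1. Of the 7 V0 subunits, 5 had a TE above their control and 2 below it, 1 of them past the fold upward. ATP6V1F, for example, had 56.0 and 93.1 FPKM in RNA-Seq but 127 and 98.8 FPKM in Ribo-Seq of proliferation and pre-senescence (TE -1.10), and ATP6V1D (TE -0.71) had 39.7 and 60.1 FPKM against 96.4 and 89.3 FPKM. Footprints of ATP6V1F were thus lower where its mRNA was higher (log2 -0.37), though within 1.5-fold. Those of ATP6V1D were nearly level (log2 -0.11, against a median of -0.10 for all genes).
Outside the pump the largest RNA changes were in 3 hydrolases. CTSL1 had 68.0 FPKM in proliferation and 192 FPKM in pre-senescence (log2 1.5), CTSK, the collagen-degrading cathepsin K, had 84.4 and 222 FPKM (log2 1.39), and NEU1 had 19.3 and 48.1 FPKM (log2 1.32). CTSK was high at this time and in quiescence but was within 1.5-fold of its own control in senescent mRNA (141 and 179 FPKM). This contrast depends on the control. Senescent CTSK was more than 1.5-fold above run 1 proliferation, and quiescent CTSK (198 FPKM) was within 1.5-fold of run 2 proliferation. Senescent footprints of CTSK were higher than their control, at 525 against 226 FPKM (log2 1.22). The lowest were TFEB, at 3.47 and 1.91 FPKM (log2 -0.86), CTSF, at 3.34 and 1.95 FPKM (log2 -0.78), and the alpha-mannosidase MAN2B1 (log2 -0.46). TFEB and CTSF are read close to the floor of the table, where small FPKM differences make large ratios. TE was highest for ATP6V0A2 (1.05) and GAA (1.02).

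Quiescence, by serum depletion, gave the opposite division of the set when read against the same run 1 control. In RNA-Seq, 14 members were at least 1.5-fold higher and 0 were lower (median 0.31), beside 10.7% and 8.73% of all genes (median 0.00). None of the 14 was a pump gene: the 17 pump genes had a median of 0.10 and ran from log2 -0.30 to 0.49. Among the 27 hydrolases 12 were higher, with 5 of 10 peptidases and 5 of 9 glycosidases (medians 0.60 and 0.64), the other 2 of the 14 being NPC1 and NPC2. LIPA had 12.8 and 38.3 FPKM in proliferation and quiescence (log2 1.59), the alpha-fucosidase FUCA1 had 3.15 and 7.71 FPKM (log2 1.29), and CTSK had 84.4 and 198 FPKM (log2 1.23). LIPA and FUCA1 in quiescence were below run 2 proliferation (56.2 and 11.8 FPKM), so that their direction depends on the control. The same held for CTSF, CTSO and GAA, at 7.36, 2.23 and 16.9 FPKM against 14.7, 7.00 and 17.9 FPKM. NEU1 (45.0 FPKM) and the tripeptidyl peptidase TPP1 (85.1 FPKM) were at least 1.5-fold above both, TPP1 alone among the 5 peptidases. Run 2 proliferation was itself at least 1.5-fold above run 1 proliferation in 5 of 10 peptidases (median 0.52). The lowest members were PPT1 (log2 -0.39), ATP6V0C (-0.30) and the arylsulfatase ARSB (-0.27), none past the fold.
In Ribo-Seq, 19 members were higher and 3 lower (18.7% and 22.1% of all genes, member median 0.32). TPP1 gave the largest footprint change, with 66.8 and 228 FPKM in proliferation and quiescence. In TE, 5 members were higher and 5 lower, near the background of 11.5% and 13.8%. ATP6V0A2 (1.11) and the small V0 subunit ATP6V0E2 (0.94) were the highest, and FUCA1 (-1.50) and the iduronate sulfatase IDS (-0.84) the lowest. Between the 2 proliferating columns, run 2 against run 1, the TE of these genes differed by 0.77, 0.70, -1.04 and -0.35. For FUCA1 the mRNA was higher and the footprints were not (9.96 and 8.63 FPKM).

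**Figure D4:**
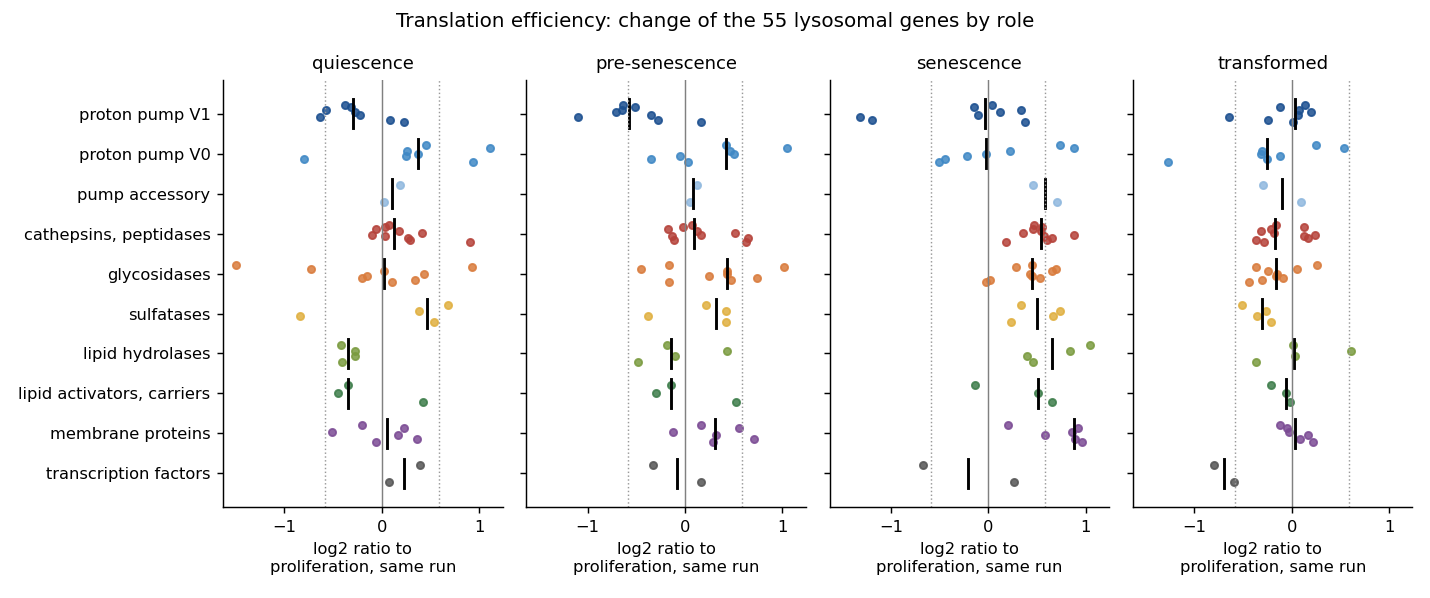
Difference in TE (log2 Ribo-Seq FPKM over RNA-Seq FPKM) between each condition and the same-run proliferating cells for the 55 genes, by role. Each point is 1 gene, the black bar is the median of the role and the dotted lines mark 1.5-fold; the V1 subunits lie left of 0 in pre-senescence except ATP6V1H (0.16), and peptidases, lipid hydrolases and membrane proteins lie right of 0 in senescence.

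In the cells labelled transformed the counts of higher and lower members were close to those of all genes in RNA-Seq. In RNA-Seq, 6 members were at least 1.5-fold higher and 8 lower (median 0.05), beside 13.1% and 11.5% of all genes (median 0.08). In Ribo-Seq 4 were higher and 12 lower (13.5% and 15.6%, member median -0.08), and in TE 1 was higher and 4 were lower (5.17% and 10.6%, member median -0.12). Only 2 of 17 pump genes were higher in RNA, ATP6AP1 and ATP6V0E2, and 1, ATP6V0E1, was lower.
The highest changes in mRNA were those of GM2A (36.5 and 75.3 FPKM in proliferation and the transformed state, log2 1.04), CTSL1 (85.6 and 175 FPKM, log2 1.03) and NPC1 (14.3 and 26.4 FPKM, log2 0.88). The transformed level of NPC1 was below that of run 1 proliferation (28.9 FPKM). The lowest were LIPA, at 56.2 and 18.1 FPKM (log2 -1.63), FUCA1, at 11.8 and 5.15 FPKM (log2 -1.19), and CTSC, at 123 and 56.3 FPKM (log2 -1.13). For LIPA and FUCA1 the transformed level was above that of run 1 proliferation, so that these 2 directions again depend on the control. In TE, LIPA (0.61) and ATP6V0A2 (0.54) were the highest and ATP6V0E2 (-1.27) and TFE3 (-0.80) the lowest.

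The senescent and the transformed libraries are both labelled as carrying RASG12V, came from the same run and were each read against the same proliferating columns, so they were also compared directly. In RNA-Seq, 32 members were at least 1.5-fold higher in senescence and 1, GUSB, was lower (median 0.78), beside 18.2% and 26.8% of all genes. In Ribo-Seq 44 were higher and 1 was lower (median 1.29, 22.7% and 29.8% of all genes), and in TE 24 were higher and 2 lower (median 0.54, 14.2% and 11.6%). The widest gap was that of LIPA, with 182 FPKM in senescence and 18.1 FPKM in the transformed state in RNA-Seq and 707 and 60.1 FPKM in Ribo-Seq (log2 3.32 and 3.56), followed in RNA-Seq by ATP6V0E1, with 532 and 91.0 FPKM (log2 2.55). These libraries differ in the knockdowns, SV40 small T, the way RASG12V was delivered, the drug and the arrest itself, which cannot be told apart.

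**Figure D5:**
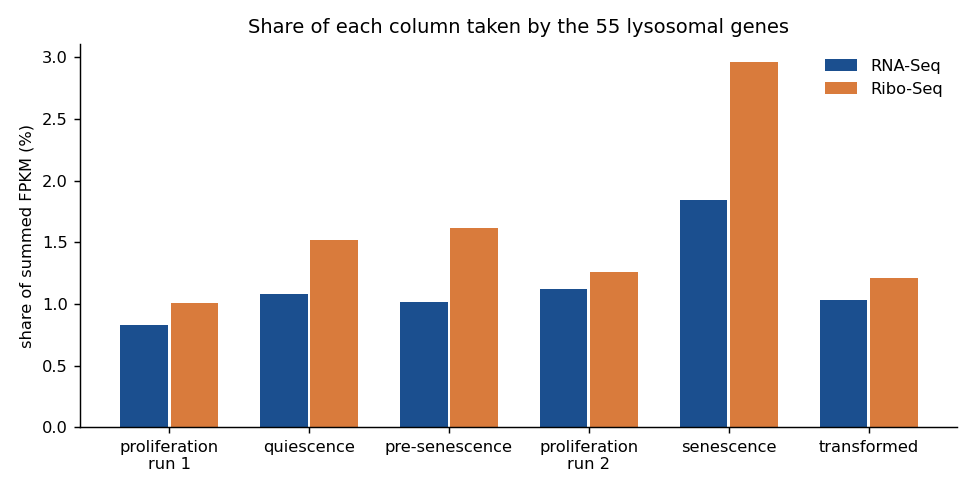
Sum of the FPKM of the 55 lysosomal genes as a percentage of the FPKM summed over all 9699 genes, for RNA-Seq and Ribo-Seq in each column. The bars start at 0; senescence has the highest share in both assays, 1.84% and 2.96%.

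Summed over the members, senescence gave the lysosomal genes the largest share of both assays. The 55 genes made up 0.832% and 1.12% of all RNA-Seq FPKM in the 2 proliferating columns, 1.08% in quiescence, 1.02% in pre-senescence, 1.84% in senescence and 1.03% in the transformed state. In Ribo-Seq the shares were 1.01% and 1.26% in proliferation, 1.52% in quiescence, 1.62% in pre-senescence, 2.96% in senescence and 1.21% in the transformed state. As shares, quiescence and pre-senescence were thus above both proliferating columns in footprints but not in mRNA, where run 2 proliferation was higher. The summed Ribo-Seq FPKM of the members was 9835 in quiescence and 10610 in pre-senescence, against 7536 and 9853 in proliferation. The sum over all genes was 647320 and 656045, against 745281 and 780289. The quiescent share was thus above that of run 2 proliferation without a higher member sum. The member median of TE was 0.83 in quiescence, 0.93 in pre-senescence, 1.21 in senescence and 0.88 in the transformed state, against 0.31, 0.22, 0.32 and 0.34 for all genes. The summed share is dominated by the most abundant members, of which CD63 alone had 1252 FPKM in senescent RNA-Seq.

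Other genes of the pathway that are not members had a smaller median change in senescence in RNA-Seq and Ribo-Seq but not in TE (0.49, against 0.45 for the members). A list of 57 symbols, older aliases included, covered further hydrolases, membrane and transport proteins, the sorting machinery of the mannose 6-phosphate route and the control of TFEB at the lysosome, and 49 of them had a row. In senescent RNA-Seq 19 were at least 1.5-fold higher and 2 lower (median 0.43), beside 18.5% and 22.4% of all genes. In Ribo-Seq 25 were higher and 2 lower (median 0.61), beside 20.7% and 29%. By list, 8 of 20 other hydrolases, 5 of 11 membrane and transport genes, 3 of 7 sorting genes and 3 of 11 TFEB control genes were higher in senescent mRNA. The 3 TFEB control genes were MITF (8.35 and 17.1 FPKM in proliferation and senescence, log2 1.03), RRAGA (log2 0.69) and RRAGC (log2 0.93). FNIP1, also on that list, was at the floor of 1 in every RNA-Seq column. TE was higher in senescence for 11 of the 20 other hydrolases and for 0 of the 11 TFEB control genes, of which 3 were lower. Of all genes, 13.8% were higher and 17.6% lower in TE. In the other conditions the numbers higher and lower in RNA-Seq among the 49 were 6 and 0 in quiescence (10.7% and 8.73% of all genes), 7 and 1 in pre-senescence (5.65% and 6.64%) and 5 and 7 in the transformed state (13.1% and 11.5%).

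The members with a promoter entry were also split by the element, and the difference between the groups was not tested. Of the 6 with TCACGTGA, 3 were at least 1.5-fold higher in senescent RNA-Seq (ATP6V0D1, ATP6V1G1 and MCOLN1; median of the 6, 0.91), and of the 34 without it 19 were higher (median 0.74). The 12 members with the core CACGTG gave 7 higher (median 0.94) and the 28 without it 15 (median 0.74). Among all measured genes with an entry, the 173 with TCACGTGA had a median of 0.15 in senescence and the 7881 without it a median of -0.01. GM2A and GLB1, with no match in the window, were among the members without the element, and the former had the largest RNA change of the members in senescence against proliferation.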

How the data were processed

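The deposited table held FPKM values, which the authors computed with Bowtie (version not given in the sources used here) from uniquely mapped reads on 1 curated protein-coding transcript per gene, after Ensembl release 65; the labels name hg19. RNA-Seq FPKM was per kilobase of the whole transcript and Ribo-Seq FPKM per kilobase of coding sequence, so TE levels of different genes also carry the length of their untranslated regions. The authors set FPKM below 1 to 1 and kept transcripts read often enough in both assays in some condition. The table holds no read counts and the floor hides the size of a single read. Read totals that the study lists per library were not used, so no counting precision is given. All 12 columns were used, 5 of them the authors' combined values.

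From these values, log2 ratios were computed without a pseudocount, for RNA-Seq, Ribo-Seq and TE, each against the proliferating column of the same run (Python 3.11.15, pandas 2.3.3, numpy 2.4.6), and the calculation was tested on simulated data. Genes at least 1.5-fold apart were counted. No p-value was computed, since no condition had replicate columns. Named were GLB1, LAMP1, LAMP2, TFEB and TFE3, and in each comparison with proliferation the 3 members highest and the 3 lowest in RNA and the 2 each way in TE, among members at 2 FPKM or more in a compared column, with the highest and lowest member of each role in proliferating RNA. Other members named were chosen after their values were seen. The members and lists were chosen with earlier results of these data known. Alternatives were a pseudocount of 1 FPKM, a filter of 5 FPKM, centring on the median of all genes, the control of the other run and the exchange of the senescent and proliferating ribosome libraries. Promoters came from RefSeq (GRCh38.p14), first listed start site per symbol; 15 members were without an entry and only named. Some genes are not reported here.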

Additional observations from a re-analysis of the deposited data

Results flagged for a closer look

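Some members were at least 1.5-fold above proliferation in senescence and at least 1.5-fold below it in the cells labelled transformed. Both changes are ratios to the same proliferating columns, and the difference between them was not tested. Of all 9699 genes, 1.14% met this in RNA-Seq and 2.19% in Ribo-Seq, and 1.99% and 2.43% met the opposite pattern. In RNA-Seq the log2 changes in senescence and in the transformed state were 1.61 and -0.94 for ATP6V0E1, 0.70 and -1.19 for FUCA1, 1.69 and -1.63 for LIPA, and 0.77 and -0.63 for NPC2. In Ribo-Seq they were 1.16 and -1.19 for ATP6V0E1, 0.72 and -0.67 for CD63, 0.85 and -0.71 for CTSA, 1.16 and -0.93 for FUCA1, 2.53 and -1.03 for LIPA, 1.28 and -0.68 for NPC2, and 0.76 and -1.03 for SMPD1. Of these, LIPA and FUCA1 also differed widely between the proliferating columns, by log2 2.14 and 1.90 in RNA-Seq. ATP6V0E1 did so in Ribo-Seq, by log2 1.30. In transformed RNA-Seq 0 members were at least 1.5-fold below both proliferating columns (5.96% of all genes). In transformed Ribo-Seq 4 members were (8.09%), and of the genes listed here only SMPD1 was among them. No member met the pattern in TE, where 0.34% of all genes did.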

How the results depend on the processing

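No paired analysis was possible because the columns carry no replicate numbers and combine the replicates, and leaving out a replicate was not possible for the same reason. A median was taken as moved when it shifted by more than the SD of the 2 proliferating columns (0.21 in RNA-Seq, 0.20 in Ribo-Seq, 0.05 in TE). The cause of a shift was not tested. Shares of all genes past the fold were not computed under these alternatives, so the member counts below have no background beside them.

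Between the 2 controls, run 2 against run 1, 12% of all genes were higher and 14.1% lower in RNA-Seq, and 21% and 20.3% in Ribo-Seq. With the control of the other run, quiescence gave a member median of 0.01 with 8 higher and 6 lower in RNA-Seq, 9 and 9 in Ribo-Seq, and 3 and 2 in TE. Pre-senescence gave 0.04 with 8 and 11 in RNA-Seq, and 0.01 with 10 and 9 in Ribo-Seq. Senescence kept its direction, with medians of 1.08, 1.36 and 0.37 in RNA-Seq, Ribo-Seq and TE and 2 lower members in RNA-Seq and 2 in Ribo-Seq. The transformed state gave 0.33 with 15 higher and 0 lower in RNA-Seq, 19 and 7 in Ribo-Seq, and -0.18 with 3 and 8 in TE. Single genes were checked only where the naming rule gave them for that comparison. Among those at least 1.5-fold from their control, the ones that changed sign were FUCA1 (-0.61) and LIPA (-0.55) in quiescent RNA-Seq, GLB1 in pre-senescent Ribo-Seq (-0.22), and FUCA1 (0.71), LIPA (0.51) and NPC1 (-0.13) in transformed RNA-Seq.

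Exchanging the senescent and proliferating ribosome libraries reversed senescent Ribo-Seq by construction, to a median of -1.16 with 1 higher and 39 lower, and gave -1.86 with 5 and 41 in TE. Against the transformed state it gave 0.08 with 12 and 4 in Ribo-Seq and -0.61 with 6 and 28 in TE. By the same rule, the signs that changed against proliferation were those of GLB1 (-1.23), LAMP1 (-1.43) and LAMP2 (-1.15) in Ribo-Seq and ASAH1 (-3.46), GLB1 (-1.81), LAMP1 (-1.94), LAMP2 (-1.44) and SCARB2 (-0.27) in TE. Against the transformed state they were LAMP1 (-0.07) in Ribo-Seq and GLB1 (-0.35), LAMP1 (-0.46) and LAMP2 (-0.26) in TE.

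Centring moved TE medians to 0.13 in quiescence, 0.24 in pre-senescence (12 higher, 1 lower) and -0.06 in the transformed state (2 higher, 2 lower). A filter at 5 FPKM left 3 higher in quiescent TE, 0 lower in pre-senescent RNA-Seq and 0 in pre-senescent Ribo-Seq, 3 lower in senescent RNA-Seq and 2 lower in transformed TE, fewer members being tested. Adding 1 FPKM gave 1 lower in pre-senescent RNA-Seq, 0 lower in pre-senescent Ribo-Seq and 0 higher in transformed TE.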
